A study of Homo sapiens with 8 samples.

Results

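miR-21 is made from a single hairpin that is cut into a pair of mature strands, miR-21-5p (hsa-miR-21-5p) and miR-21-3p (hsa-miR-21-3p), and both were followed here through all 8 small RNA libraries of the series. The members were picked by name: they are 2 of the 1780 miRNA entries in the deposited table of read counts. The libraries came from DLD1 and HT29, established human colorectal adenocarcinoma cell lines, each grown for 6 days either as a flat 2D monolayer or as multicellular spheroids (MCS), non-adherent cell balls formed in agarose-coated round-bottom wells. Each line and culture had 2 libraries, labelled as biological replicates. DLD1 cells were kept in RPMI and seeded at 35000 cells for 2D and 7000 for MCS. HT29 cells were kept in DMEM and seeded at 100000 for 2D and 3500 for MCS. Libraries were made with version 3 of the small RNA kit for DLD1 and version 2 for HT29, so the line, the medium and the kit cannot be told apart, and MCS was compared with 2D only within a line.

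A miRNA is a short RNA that, loaded into an Argonaute protein, pairs through its seed (bases 2 to 8) with messenger RNAs and lowers their output. The hairpin's favoured strand (for miR-21 the 5p arm) is retained as the guide, and the other strand is mostly degraded. miR-21 is among the best known oncogenic miRNAs, is abundant in colorectal tumours, is induced by STAT3 and AP-1, and represses the tumour suppressor PDCD4.

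MIR21 lies at chr17:57918627-57918698 on the plus strand of GRCh37, 72 bases long. It overlaps VMP1, a gene of the autophagy machinery on the same strand, 918 bases before that gene's end. All 10 of the 10 annotated VMP1 transcripts that span it carry it inside an exon, and in 8 it falls in an untranslated region. No gene on the opposite strand is annotated over it. miR-21-5p occupies bases 8 to 29 of the hairpin. The RefSeq mature sequences (table build GRCh38.p14) hold 1 other miRNA with the same seed, miR-590-5p, whose hairpin MIR590 lies at chr7:73605528-73605624 on the plus strand of GRCh37 in an intron of EIF4H. The pair is shown because their seeds, in capitals, are the same and the rest of the strands is not.

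miR-21-5p: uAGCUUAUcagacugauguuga

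miR-590-5p: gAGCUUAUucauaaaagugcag

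The longest run that miR-21-5p had in common with any other of the 2370 mature sequences was 9 bases (miR-374a-3p and miR-873-3p). Of the 1780 counted entries, 1557 had a sequence in that table. miR-590-5p was near the bottom of the measured range, with 14 and 87 counts in DLD1 2D, 37 and 26 in DLD1 MCS, 38 and 324 in HT29 2D, and 50 and 299 in HT29 MCS. Its mean was below 10 CPM (miRNA counts scaled to a common library total) in both lines, so it was not tested. miR-21-5p had between 13783 and 324048 counts for every count of miR-590-5p in a library.

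The libraries held 10495634 to 26211524 miRNA counts. The HT29 libraries stood apart from each other within each culture: miR-10a-5p, with the highest mean share over the 8 libraries, took 47.3% and 10.6% of counts in HT29 2D, and 38.5% and 6.57% in HT29 MCS. In DLD1 it took 15.2% to 19.0%. Nothing in the labels says whether the replicates came from separate cultures on separate days, so p-values measure only the spread between these samples. Epithelial character, not line identity, was checked with 10 epithelial and intestinal miRNAs, of which 9 reached 10 CPM in every library. Their summed level ran from 100600 to 115200 CPM in DLD1 2D, from 185300 to 186800 in DLD1 MCS, from 74020 to 203800 in HT29 2D and from 150800 to 281400 in HT29 MCS. Markers of other cell types were low. In any library the sum reached at most 449.6 CPM for 8 blood cell miRNAs, of which 7 had an entry. It reached at most 92.7 CPM for 7 stromal and muscle miRNAs and 113.6 CPM for 2 endothelial miRNAs.

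miR-21-5p was the most abundant or the next most abundant miRNA in every library. In DLD1 2D it took 28.7% and 25.2% of all miRNA counts, from 4536671 and 6416824 counts, and ranked 1 in both. In DLD1 MCS it took 12.0% and 15.1%, from 2169828 and 3083257 counts, and ranked 2 behind miR-10a-5p in both. Both MCS libraries lay below both 2D libraries. The mean share was 26.9% ± 2.48 (SD, n = 2) in 2D and 13.5% ± 2.16 (SD, n = 2) in MCS, a ratio of 0.503. In terms of the leading other miRNA, miR-21-5p stood at 1.77 and 1.65 times miR-10a-5p in DLD1 2D, and at 0.639 and 0.793 times in DLD1 MCS. A share is relative to the other miRNAs. In these bulk samples, fewer cells with much miR-21, less miR-21 per cell and more of other miRNAs cannot be told apart by it.

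In HT29 2D the share of miR-21-5p was 17.1% and 28.1%, from 1793596 and 7367017 counts. In HT29 MCS it was 20.4% and 24.0%, from 2189640 and 4121178 counts. The MCS values lay between the 2D values, with means of 22.6% ± 7.79 (SD, n = 2) in 2D and 22.2% ± 2.55 (SD, n = 2) in MCS. miR-21-5p ranked 1 in the HT29 libraries numbered 2, at 2.43 times (2D) and 2.16 times (MCS) miR-200b-3p, an epithelial miRNA that was next there. It ranked 2 behind miR-10a-5p in those numbered 1, at 0.362 and 0.529 times. The exact 2-sided permutation test gave p = 0.33 for the share in DLD1, the smallest value that 2 libraries against 2 allow, and p = 1 in HT29. Counting error was small beside these gaps, since the widest 95% Wilson interval of a share of miR-21-5p spanned 0.0482 percentage points, counting error only.

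**Figure D1:**
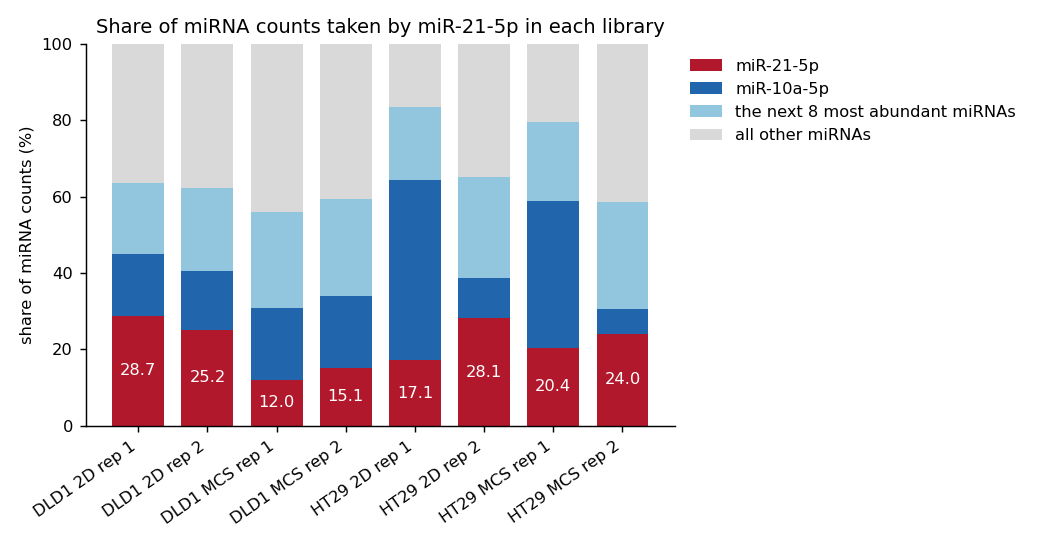
Share of all miRNA counts (vertical axis, percent) in each of the 8 libraries (horizontal axis), stacked for miR-21-5p, miR-10a-5p, the next 8 most abundant miRNAs and all others. The miR-21-5p segment is 28.7% and 25.2% in DLD1 2D but 12.0% and 15.1% in DLD1 MCS, and in HT29 the miR-10a-5p segment varies more between replicates than between cultures.

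With miR-10a-5p left out of the total, the HT29 2D libraries drew together, the HT29 MCS libraries moved apart and the DLD1 contrast stayed. The share of miR-21-5p was then 32.4% and 31.4% in HT29 2D, 33.2% and 25.7% in HT29 MCS, 34.2% and 29.7% in DLD1 2D, and 14.8% and 18.6% in DLD1 MCS. The groups still overlapped in HT29 and were still apart in DLD1. With the 10 most abundant other miRNAs left out, it was 45.3% and 41.3% in DLD1 2D against 22.4% and 28.2% in DLD1 MCS. Over the 8 libraries, the mean share of miR-21-5p was 21.3% (12.0% to 28.7%) and that of miR-10a-5p 21.5% (6.57% to 47.3%). The mean shares of the other 8 of the 10 most abundant were lower, but several differed greatly between the lines. They were 6.13% for miR-200b-3p (3.20% to 11.6%), 4.58% for miR-200c-3p (1.08% to 9.41%), 2.37% for miR-26a-5p (0.421% to 4.49%) and 2.33% for miR-192-5p (0.0753% to 7.38%). They were 2.32% for miR-3529-3p (0.466% to 4.07%), 2.03% for miR-99b-5p (0.0185% to 7.93%), 1.82% for miR-92a-3p (0.745% to 3.27%) and 1.60% for miR-30d-5p (0.443% to 2.28%). The range of miR-21-5p was narrower than that of miR-10a-5p.

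The 3p arm took far fewer counts and followed the same pattern in DLD1. miR-21-3p had 1478 and 1425 CPM in DLD1 2D, from 23374 and 36296 counts, and 465 and 573 CPM in DLD1 MCS, from 8403 and 11732 counts. The ratio of the group means was 0.358, with no overlap. In HT29 it had 745 and 1950 CPM in 2D, from 7819 and 51102 counts, and 1298 and 1368 CPM in MCS, from 13945 and 23510 counts, so the MCS values again lay between the 2D values and the ratio of means was 0.989. The exact permutation p-values were 0.33 in DLD1 and 1 in HT29. By level the 3p arm ranked 58 and 59 in DLD1 2D, 95 and 81 in DLD1 MCS, 58 and 54 in HT29 2D, and 55 and 67 in HT29 MCS.

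The test across all miRNAs asked whether the culture changed the level of each arm once libraries were scaled by the upper quartile of their detected miRNAs, the scaling named in the study's methods. That quartile lay at 5.24 to 8.20 CPM in the DLD1 libraries and at 1.52 to 4.85 CPM in the HT29 libraries. These levels are below the mean of 10 CPM that a miRNA needed to be tested. A miRNA was called when it changed at least 1.5-fold with a Benjamini-Hochberg adjusted p under 0.05 over all tested miRNAs. In DLD1 the fit called 1 of the 2 arms, beside 41.6% of the 346 tested miRNAs called in either direction and 11.6% called lower in MCS. The arm called was miR-21-3p, which fell in MCS. Its normalised values were 1333 and 1220 CPM in 2D and 449 and 769 CPM in MCS, without overlap. The log2 fold change was -1.07 (SE 0.23, 95% interval -1.52 to -0.62), 2.10-fold lower, and edgeR's quasi-likelihood test put its adjusted p at 2.21e-05. It was the 25th lowest of the 346 fold changes.

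miR-21-5p was not called in DLD1 on this scale. Its normalised values were 258661 and 215752 CPM in 2D and 115952 and 202019 CPM in MCS. MCS replicate 2 came close to the lower 2D library, though both MCS libraries stayed below both 2D libraries, as they did for 25.4% of tested miRNAs (70.8% had groups apart in either direction). The log2 fold change was -0.58 (SE 0.40, 95% interval -1.35 to 0.20), 1.49-fold lower, and edgeR's quasi-likelihood test put its adjusted p at 0.237. On the same scale edgeR's exact test gave -0.58 with an adjusted p of 0.0399. By that test miR-21-5p missed the call only on the 1.5-fold threshold. Without DLD1 MCS replicate 2 the log2 fold change was -1.09, in a fit whose lone MCS library was assumed to vary like the 2D libraries. The scaling factor of that replicate was 0.746, against 1.04 to 1.17 in the other 3 DLD1 libraries. Its upper quartile was 5.24 CPM, against 7.28 to 8.20 CPM in those 3. With all 8 libraries in 1 fit, the call on miR-21-3p was lost too, at a log2 fold change of -1.10 and an edgeR adjusted p of 0.144.

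In HT29 neither arm was called, and nor was any of the 301 miRNAs tested (0% called) by edgeR's quasi-likelihood test, which gave 13 at an unadjusted p under 0.05. edgeR's exact test called 5 and DESeq2 12. With the replicate number as a block, the quasi-likelihood test called 47, neither arm of miR-21 among them. Normalised miR-21-5p was 327162 and 169296 CPM in 2D and 274858 and 154200 CPM in MCS. Normalised miR-21-3p was 1426 and 1174 CPM in 2D and 1750 and 880 CPM in MCS. Both arms overlapped between cultures, since replicate 1 was the higher in each, where 28.6% of tested miRNAs had groups apart. The log2 fold changes were -0.21 (SE 0.77, 95% interval -2.21 to 1.79) for miR-21-5p and 0.02 (SE 0.49, 95% interval -1.26 to 1.29) for miR-21-3p. These intervals hold both DLD1 estimates.

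The difference of the response between the lines was tested directly as an interaction over 250 miRNAs. HT29 minus DLD1 was 0.37 on the log2 scale (SE 0.79, 95% interval -1.50 to 2.23, adjusted p 0.933 by edgeR) for miR-21-5p. It was 1.08 (SE 0.56, 95% interval -0.25 to 2.42, adjusted p 0.651 by edgeR) for miR-21-3p. Neither passed, and edgeR called 0 of the 250 miRNAs (0% called), with 25 at an unadjusted p under 0.05, where DESeq2 called 21. For miR-21-3p the adjusted p was 0.0798 by edgeR with the replicate number as a block and 0.0859 by DESeq2, both above 0.05. On other scalings without the block, edgeR gave 0.445 to 0.998. The fall of miR-21-3p in DLD1 was therefore not shown to be particular to that line.

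**Figure D2:**
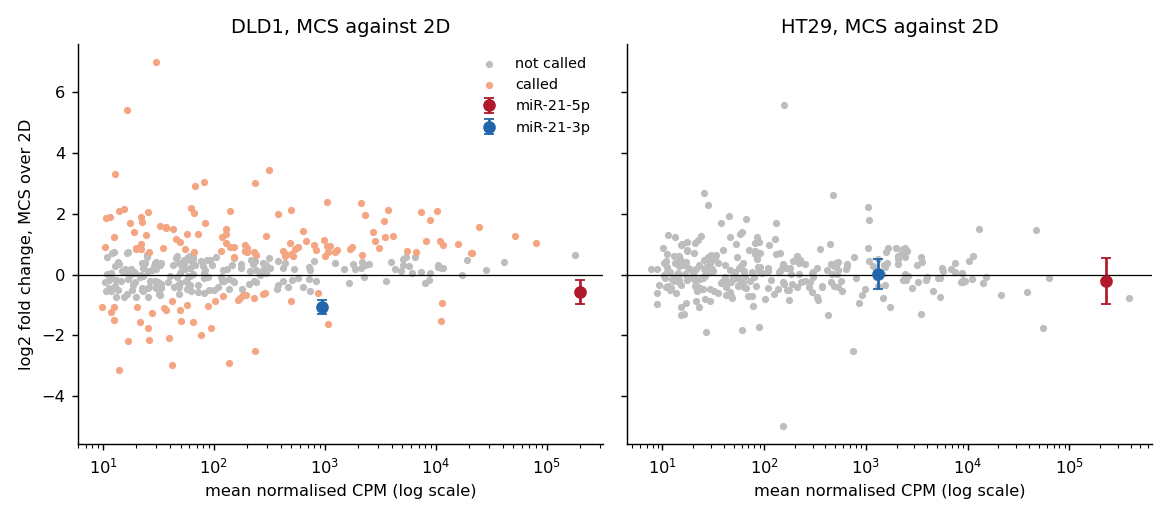
Log2 fold change of MCS over 2D (vertical axis) against mean normalised CPM (horizontal axis, log scale) for every tested miRNA in DLD1 (left) and HT29 (right), with standard errors on both miR-21 arms. miR-21-5p lies at the far right at -0.58 in DLD1 and -0.21 in HT29, and miR-21-3p at -1.07 in DLD1, where it is called, and 0.02 in HT29.

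The fold change of miR-21-5p in DLD1 hung on the scaling. It was -0.58 on upper quartiles over all detected miRNAs and -0.72 on median-ratio factors as edgeR computes them (RLE). It was -0.80 on TMM factors, which trim extreme ratios, and -0.94 on totals without miR-10a-5p. It was -0.96 on 6 miRNAs in common use as RT-qPCR references, -0.99 on library totals, -1.08 on upper quartiles over the tested miRNAs alone, and -1.24 on totals without miR-21-5p itself. Every scaling put it lower in MCS, and edgeR called it lower in 6 of the 8. The exceptions were upper quartiles over all miRNAs and RLE, with adjusted p-values of 0.237 and 0.0574 by edgeR's quasi-likelihood test. DESeq2, with its own factors and test, gave -0.84 and called miR-21-5p lower. The share of all tested miRNAs called lower moved too, from 11.6% on upper quartiles, 14.7% on RLE and 18.2% on TMM to 21.4% on totals without miR-10a-5p, 24.0% on the references, 25.7% on library totals, 27.5% on upper quartiles over tested miRNAs and 35.5% on totals without miR-21-5p. miR-21-3p was called lower on all 8, with log2 fold changes of -1.07 to -1.72.

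These scalings moved all miRNAs together, and the median log2 fold change of the 345 miRNAs other than miR-21-5p in DLD1 ran from -0.38 to 0.23. Set against that median, miR-21-5p was lower by much the same amount throughout, at -0.81 to -0.87, and miR-21-3p at -1.30 to -1.35. In HT29 miR-21-5p lay at -0.19 to -0.25 against the median on the 8 scalings, and neither arm was called on any of them. The sign of miR-21-3p in HT29 changed with the scaling, from 0.02 on upper quartiles to -0.18 on upper quartiles over the tested miRNAs.

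**Figure D3:**
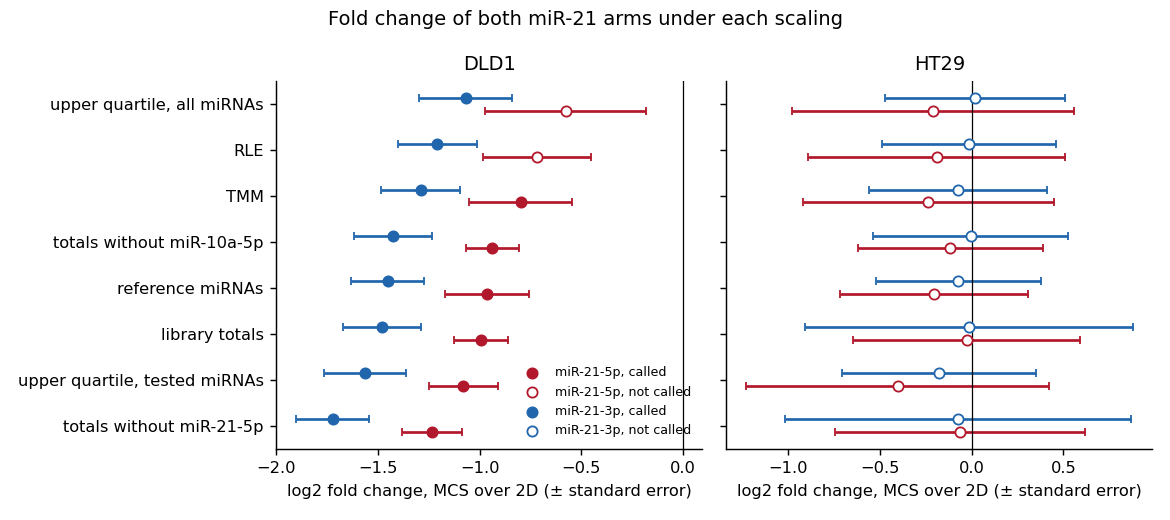
Log2 fold change of MCS over 2D (horizontal axis, with standard error) of miR-21-5p and miR-21-3p under 8 scalings (vertical axis), in DLD1 (left) and HT29 (right). Filled points are called and open points are not: in DLD1 miR-21-5p runs from -0.58 to -1.24 and is open on 2 scalings, miR-21-3p is filled on all 8, and in HT29 every point is open.

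The ratio of miR-21 to another miRNA within a library needs no scaling. In DLD1 the ratio of miR-21-5p to the other miRNA fell in MCS, with no overlap of the cultures, for 237 of 344 miRNAs (68.9%), higher for 26 (7.56%) and overlapping for 81. The median log2 change of these ratios was -0.86. Among the 168 miRNAs averaging 100 CPM or more, miR-21-5p was lower for 133 (79.2%). miR-21-3p was lower against 303 of 344 (88.1%), higher against 14, with a median of -1.35. In HT29 most ratios overlapped: miR-21-5p was lower against 49 of 299 (16.4%), higher against 16 and overlapping for 234, with a median of -0.25. For miR-21-3p in HT29 the counts were 38 lower, 17 higher and 244 overlapping. All these ratios have the same numerator, so they are a description and not separate tests.

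A miRNA that takes a large part of a library's counts can move every other value when libraries are scaled to their totals. Leaving miR-21-5p out of the total shifted the log2 fold change of every other miRNA in DLD1 by -0.24, and in HT29 by -0.01. The HT29 shift ran from -0.11 without HT29 2D replicate 1 to 0.09 without HT29 2D replicate 2, so its sign rests on single libraries, and the DLD1 shift from -0.28 to -0.21 with each library left out. Leaving miR-10a-5p out in its place shifted them by 0.06 in DLD1 and -0.14 in HT29, so with all libraries the larger shift came from miR-21-5p in DLD1 and from miR-10a-5p in HT29. Upper quartile, TMM and RLE factors barely depended on the miR-21-5p row, with shifts between -0.012 and 0.0078 on the log2 scale over both lines.

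In DLD1 more of the other miRNAs were called down than up on either total, by a wider margin without miR-21-5p. On library totals 61 of the 345 others were called up and 88 down in MCS, so 40.9% of the calls were up. On totals without miR-21-5p 46 were up and 122 down, so 27.4% were up. Upper quartiles, a different scaling, gave 104 up and 40 down, so 72.2% were up. Between totals with and without miR-21-5p, 49 calls changed: 15 miRNAs were no longer called up and 34 were newly called down, and the sign of the fold change turned for 39. As 1 shift moves every miRNA alike, these numbers only count the miRNAs that lay near 0 or near the threshold. In HT29 no miRNA was called by edgeR on either total, and the sign turned for 14 of 300.

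The 10 most abundant of the miRNAs whose call changed fell on both sides. miR-200c-3p, which holds epithelial identity by repressing ZEB1, went from a called log2 fold change of 0.65 to 0.41, not called. miR-29a-3p (0.63 to 0.38), which targets collagens, miR-182-5p (0.59 to 0.35), miR-26b-5p (0.70 to 0.46), miR-148a-3p (0.70 to 0.45) and miR-374a-5p (0.70 to 0.45) did likewise. In the other direction miR-425-5p (-0.42 to -0.66), miR-378a-3p (-0.58 to -0.82), miR-25-3p (-0.35 to -0.59) and miR-16-5p (-0.35 to -0.59) became called down. The last 2 are in the set of RT-qPCR reference miRNAs. Without miR-21-5p in the total, edgeR adjusted p-values were 0.0145 for miR-200c-3p and 0.00210 for miR-16-5p. On upper quartiles the 6 reference miRNAs had a median log2 fold change of 0.26 in DLD1, and of -0.07 in HT29, none called. In DLD1 2 of the 6 were called up, miR-191-5p (0.77) and miR-423-5p (0.81), near the 30.1% of all 346 tested miRNAs called up.

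The balance of the arms within the hairpin also differed between cultures in DLD1, on a measure that needs no scaling. There were 194 and 177 counts of miR-21-5p for each count of miR-21-3p in DLD1 2D, and 258 and 263 in DLD1 MCS. The means were 185 ± 12.2 (SD, n = 2) and 261 ± 3.24 (SD, n = 2), with no overlap, and the 3p arm was 0.513% and 0.562% of both arms in 2D and 0.386% and 0.379% in MCS. In HT29 the ratios were 229 and 144 in 2D and 157 and 175 in MCS, which overlapped, and the 3p arm was 0.434% and 0.689% of both arms in 2D and 0.633% and 0.567% in MCS. The excess of miR-21-5p was the second highest among 84 hairpins with both arms at 10 CPM or more in DLD1, and the 6th highest of 75 in HT29.

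Tested with limma over all such hairpins, the log2 arm ratio of miR-21 rose by 0.49 in DLD1 MCS (SE 0.20, 95% interval 0.09 to 0.89), 1.41-fold, but the Benjamini-Hochberg adjusted p of limma was 0.0712, which misses the threshold. Over the alternatives limma's adjusted p ran from 0.0513 with both arms at 100 CPM or more to 0.523 without DLD1 MCS replicate 1, and passed in none of them. Of the 84 hairpins, 10 were called (11.9%), 6 with a higher ratio and 4 with a lower ratio in MCS, and 28.6% had both MCS libraries above both 2D libraries as miR-21 did (59.5% had groups apart in either direction). The 5 hairpins with the smallest p moved by 1.54 (let-7b), -1.61 (miR-27a), 0.96 (miR-335), -1.50 (miR-210) and 0.99 (miR-181a), against a median absolute difference of 0.43 over all 84. In HT29 the arm ratio of miR-21 differed by -0.13 (SE 0.79, 95% interval -2.02 to 1.75, adjusted p 0.996 by limma). limma called 0 of the 75 hairpins there (0% called), with 1 at an unadjusted p under 0.05, and 17.3% had groups apart. The 5 with the smallest p, miR-301a (-2.99), miR-338 (-1.54), miR-181a (1.30), miR-335 (1.49) and miR-26b (1.46), all had an adjusted p of 0.996 by limma.

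**Figure D4:**
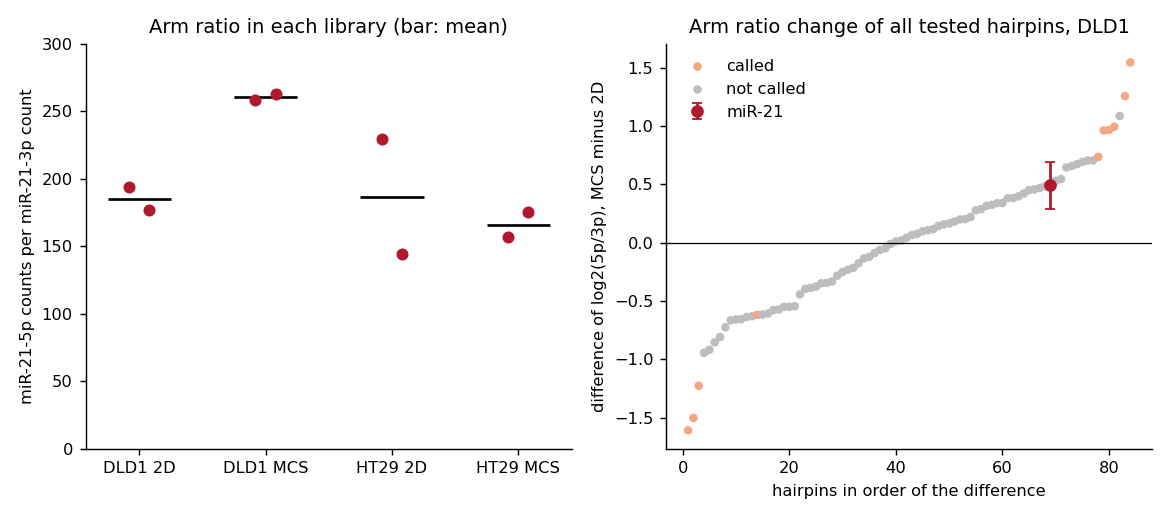
Left, counts of miR-21-5p for each count of miR-21-3p (vertical axis) in the 2 libraries of each group, with the mean as a bar. Right, difference of log2(5p/3p) between MCS and 2D in DLD1 (vertical axis) for 84 hairpins in order of that difference, with the standard error on miR-21: the DLD1 MCS libraries lie at 258 and 263, above all other libraries, and miR-21 sits at 0.49 among hairpins that reach further in both directions.

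The miRNAs known to promote colorectal cancer were counted against all tested miRNAs, of which 30.1% were called up and 11.6% down in DLD1. Of 17 colorectal oncomiRs tested in DLD1 on upper quartiles, both miR-21 arms included, 6 rose, 3 fell and 8 did not pass. Their median log2 fold change was 0.19, beside 0.23 over all 346 tested. Leaving out both miR-21 arms, 6 rose, 2 fell and 7 did not pass, with a median of 0.43. miR-222-3p, which represses the cell cycle inhibitor CDKN1B, fell by 0.95 (edgeR adjusted p 0.00171), and miR-18a-5p of the miR-17 cluster fell by 0.61 (edgeR adjusted p 0.0259). miR-182-5p rose by 0.97 (edgeR adjusted p 0.00137) and miR-31-5p by 0.62 (edgeR adjusted p 0.0182). As CPM of library totals, miR-31-5p overlapped between cultures, at 418 and 364 in 2D and 551 and 394 in MCS. On those totals miR-182-5p, miR-222-3p and miR-18a-5p still had groups apart. The list was put together with results of these data known, so its counts are a description.

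The next list held 8 miRNAs whose transcription is linked to STAT3, NF-kB or AP-1, the factors known to induce MIR21, both miR-21 arms included. In DLD1 3 rose, 2 fell and 3 did not pass, with a median log2 fold change of 0.11. Over all tested miRNAs, the same 30.1% were called up and 11.6% down. Leaving out both miR-21 arms, 3 rose, 1 fell and 2 did not pass, with a median of 0.66. miR-146a-5p, an NF-kB target that dampens Toll-like receptor signalling, rose by 2.10 (edgeR adjusted p 4.48e-13). Its relative miR-146b-5p rose by 1.44 (edgeR adjusted p 1.00e-08) and miR-181b-5p by 0.84 (edgeR adjusted p 0.00114). miR-155-5p had a log2 fold change of 0.48 and miR-221-3p of -0.27, and neither passed. The miRNAs that fell were miR-21-3p and miR-222-3p. All these calls were made on upper quartiles, the scaling with the smallest share of tested miRNAs called lower. As CPM of library totals, miR-221-3p lay lower in both DLD1 MCS libraries (7270 and 5564) than in both 2D libraries (9226 and 10690). On those totals miR-181b-5p stayed higher in MCS, at 2069 and 1715 CPM against 1343 and 1381 CPM. In HT29 edgeR called none of the 17 or of the 8, whose medians were 0.02 and 0.19 beside 0.03 over all 301 tested.

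The marker lists were counted the same way. In DLD1, 7 of 9 tested epithelial miRNAs rose and none fell, with a median log2 fold change of 1.26 on upper quartiles, where 30.1% of all tested miRNAs rose. Of 3 tested blood cell miRNAs 2 rose (median 1.57), of 2 endothelial miRNAs 1 rose (median 0.74), and no stromal or muscle miRNA reached the filter. The summed blood cell markers were 103 to 110 CPM in DLD1 2D and 191 to 206 CPM in DLD1 MCS. Of these 8, miR-223-3p had no entry among the miRNAs counted here. The red cell miRNAs miR-451a and miR-144-3p reached at most 0.885 and 0.291 CPM in any library. In HT29 edgeR called none of 10 epithelial (median 0.49), 4 blood cell (median 1.87), 1 stromal or muscle (0.37) and 1 endothelial miRNA (0.11). The part of these markers in the fall of miR-21 was not tested.

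The miRNAs whose level ran most like that of miR-21-5p over the 8 libraries, among 249 compared, were miR-3529-3p (Pearson r 0.958), miR-221-5p (0.955), miR-21-3p (0.944), miR-584-5p (0.905) and miR-7-5p (0.899), in log2 normalised CPM. The partner arm was the third. For miR-21-3p they were miR-3529-3p (0.962), miR-21-5p (0.944), miR-7-5p (0.938), miR-940 (0.935) and miR-30a-5p (0.931). These 8 points share the line, the kit and the scaling factors, so each r is a description. These 6 other miRNAs were chosen for following miR-21 over the same libraries, so their direction in DLD1 is partly built into the choice. There 5 of them fell in MCS, where 11.6% of all tested miRNAs did: miR-30a-5p by 2.51, miR-7-5p by 1.64, miR-3529-3p by 1.54, miR-940 by 1.08 and miR-221-5p by 0.86 on the log2 scale. miR-584-5p had a log2 fold change of -0.46 that did not pass (edgeR adjusted p 0.123). In HT29 the 6 had values between -0.93 (miR-221-5p) and 1.01 (miR-30a-5p), none called by edgeR.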

How the data were processed

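Small RNA of 8 cell line libraries was sequenced. Per the study's methods, the authors trimmed adapters and random bases with Cutadapt, dropped short or poor reads, aligned with Bowtie2 to GRCh37 and then to miRBase mature miRNAs, and deposited raw read counts per miRNA, not normalised. Submitters' processing notes name CASAVA 1.8.3, cutadapt 1.11, Bowtie2 2.1.0 and edgeR 3.4.2. The study's methods give other versions of Cutadapt and Bowtie2. Treatment of reads that match several miRNAs, and of strand, is not given in the sources used here. The series table and the per-sample tables agreed in all 12572 values compared. Entries naming no miRNA (15, at most 2590 counts or 0.00988% of a library) were left out.

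Counts were tested with edgeR 4.0.16 (quasi-likelihood, each line alone, culture as the only term, upper quartile factors, mean of at least 10 CPM), arm ratios with limma 3.58.1 on log2 ratios with a pseudocount of 0.5, and shares with an exact permutation test, in R 4.3.3 and SciPy 1.17.1. DESeq2 1.42.0 was an alternative, as were other scalings, filters, a replicate block and each library left out. Scripts were tested on simulated data. The members, lists and tests were chosen with earlier results of these data known. Named miRNAs are both arms, seed mates, the 10 most abundant, the 5 most alike each arm, the 5 hairpins with the smallest arm-ratio p per line, up to 10 whose call changed without miR-21-5p, and 2 to 4 examples per list. Positions came from GENCODE release 44 on GRCh37 and sequences from RefSeq. Totals of 10495634 to 26211524 counts keep counting error below the spread between replicates.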

Additional observations from a re-analysis of the deposited data

How the results depend on the processing

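With 2 libraries per group, replicate spread and not depth limits these comparisons, most of all in HT29, where intervals are wide. Of the alternatives run for miR-21-3p in DLD1, 16 kept the call (each library left out included), and all libraries in 1 fit lost it (-1.10). With every DLD1 library kept, miR-21-5p in DLD1 became called with TMM (-0.80), reference miRNAs (-0.96), upper quartiles over tested miRNAs (-1.08) and DESeq2 (-0.84). The same held for totals (-0.99), totals without miR-21-5p (-1.24) and totals without miR-10a-5p (-0.94). By edgeR's exact test on upper quartiles it stayed uncalled at -0.58 (adjusted p 0.0399), just under 1.5-fold. Without DLD1 MCS replicate 2, which leaves a lone MCS library, miR-21-5p stood at -1.09 on upper quartiles. The cause of these differences was not tested. In HT29 miR-21-3p, at 0.02, turned negative with TMM (-0.075), RLE (-0.015), totals (-0.015), totals without miR-21-5p (-0.074) or miR-10a-5p (-0.0066), reference miRNAs (-0.074), upper quartiles over tested miRNAs (-0.18), DESeq2 (-0.094) and all libraries in 1 fit (-0.021), never called. Calls in DLD1 fell from 144 to 30 with all libraries in 1 fit. Calls in HT29 were 5 by the exact test, 12 by DESeq2 and 3 without the filter. With miR-10a-5p left out in place of miR-21-5p, 73 others were called down in DLD1, not 122, and the shift was 0.055 in DLD1 and -0.14 in HT29. With the 10 most abundant others left out, the log2 ratio of shares in DLD1 was -0.77 for miR-21-5p and -1.27 for miR-21-3p.

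Leaving out each library in turn gave the following lowest and highest values. For miR-21-5p they were -1.09 and -0.40 in DLD1 and -0.72 and 0.33 in HT29, and for miR-21-3p -1.57 and -0.90, and -0.59 and 0.41. The difference between the lines for miR-21-5p ran from -0.061 to 0.95, and the arm ratio in HT29 from -0.47 to 0.20. Calls ran from 92 (without DLD1 2D replicate 2) to 129 in DLD1 and from 0 to 2 in HT29. The log2 ratio of shares ran from -1.64 to -1.34 for miR-21-3p in DLD1, from -0.55 to 0.84 for miR-21-3p in HT29 and from -0.34 to 0.38 for miR-21-5p in HT29.

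The labels do not say what libraries with the same replicate number shared. Their deviations correlated at 0.338 over 346 miRNAs in DLD1 and 0.788 over 301 in HT29, from 2 pairs a line. In HT29 the number thus went with a difference shared by both cultures, which the main fit left in the replicate spread. With the replicate number as a block, miR-21-5p was -0.63 in DLD1 and -0.19 in HT29, miR-21-3p -1.12 and -0.061, the difference between the lines 0.41 and 1.03 for the 5p and 3p arms, and the arm ratio 0.49 and -0.13. The block gave 139 calls in DLD1 and 47 in HT29, and changed no call on either arm. In HT29 the block narrowed the standard errors to 0.30 for miR-21-5p and 0.33 for miR-21-3p, from 0.77 and 0.49 without it.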

Other observations

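The miRNA whose level ran most like both arms of miR-21, miR-3529-3p, is by sequence the exact reverse complement of miR-7-5p over all 24 bases, and miR-7-5p was also among the most alike. The RefSeq pair is shown because each strand read backwards and complemented gives the other, with every base in capitals.

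miR-3529-3p: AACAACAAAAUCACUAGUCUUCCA

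miR-7-5p: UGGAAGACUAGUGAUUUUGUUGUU

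miR-3529-3p took 1.89% and 1.90% of counts in DLD1 2D, 0.466% and 0.519% in DLD1 MCS, 3.51% and 4.07% in HT29 2D, and 3.12% and 3.08% in HT29 MCS. As shares of counts, its MCS values lay below its 2D values in both lines. On the upper quartile scale the cultures overlapped in HT29, at 67158 and 24513 CPM in 2D and 42128 and 19801 CPM in MCS (log2 fold change -0.57, edgeR adjusted p 0.978), and stayed apart in DLD1, as 70.8% of tested miRNAs did. The use of strand in counting is not given in the sources used here. Whether reads of miR-3529-3p and miR-7-5p were assigned to the right entry is therefore unknown, and the values of these miRNAs are uncertain.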
